A study of Mus musculus with 2 samples.

Results

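The 9 genes described here encode regulators of chondrocyte hypertrophy, namely the RUNX factors *Runx1*, *Runx2* and *Runx3*, their shared partner *Cbfb*, the zinc finger factor *Sp7*, the MADS box factors *Mef2a*, *Mef2c* and *Mef2d*, and the histone deacetylase gene *Hdac4*. They were chosen by name, and each matched 1 of the 24421 rows of the count table. RNA-Seq compared primary chondrocytes with primary dermal fibroblasts, in a study that sought factors acting on *Sox9* enhancers. The chondrocytes came from newborn mouse rib cartilage digested with collagenase and were used within 2 passages. The fibroblasts came from newborn mouse dorsal skin, also by collagenase. The genotype, strain and number of pooled animals of these cultures are not given in the sources used here, no treatment is named, sex was not a variable of the study, and each cell type had 1 library.

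During endochondral bone formation, chondrocytes stop dividing, enlarge and switch on type X collagen before bone replaces the cartilage. RUNX2 and MEF2C drive this hypertrophic step, RUNX3 acts partly in place of RUNX2, and SP7 acts with or after RUNX2 in hypertrophic chondrocytes and is required for osteoblasts. HDAC4 holds the program back by repressing MEF2 and RUNX2 proteins, and parathyroid hormone-related protein and salt-inducible kinases control its entry into the nucleus. CBFB has no DNA-binding domain of its own and stabilizes RUNX proteins on DNA.

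RUNX genes are transcribed from a distal and a proximal promoter, and RUNX proteins bind the letters ACCACA. Windows from 250 bases before to 50 after a gene start were matched for 8 of the 9 genes, 12 windows in all. None was listed for *Sp7*. The stretches around a pair of RUNX motifs at the distal starts are shown because all 3 RUNX genes hold the pair. They are RefSeq sequences of GRCm38.p6, read 5′ to 3′ on the strand of the gene, with each ACCACA in capitals.
*Runx1* (chr16:92826025-92826054, minus strand): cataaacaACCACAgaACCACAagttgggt
*Runx2* (chr17:44814583-44814612, minus strand): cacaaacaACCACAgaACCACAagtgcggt
*Runx3* (chr4:135120503-135120532, plus strand): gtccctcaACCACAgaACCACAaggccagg
In each gene the 2 copies lay in the same direction with 2 bases between them. Counted from the first transcribed base as 1, the pair began at base 29 in *Runx1* and at base 24 in *Runx2*. In *Runx3* it began at base -134, before the start. The letters ACCACA or TGTGGT, which cover both strands, occurred in 16.8% of all 32851 such windows of the genome and in 3 of the 12. A pair spaced this way in either direction, a form searched for after these windows were seen, occurred in 7 windows (0.0213%), of which 3 were those of the RUNX genes. The proximal windows listed for *Runx1* and *Runx3*, 129 kb and 31.9 kb downstream, held no such motif. The counts are summed per gene, so transcripts from the distal and the proximal start cannot be told apart in them.

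*Runx2* held a further copy before its start. The 250 bases before the start (chr17:44814628-44814877, minus strand), with this copy at base -80 in capitals, are shown because *Runx2* is the central regulator of hypertrophy.
*Runx2* before the start: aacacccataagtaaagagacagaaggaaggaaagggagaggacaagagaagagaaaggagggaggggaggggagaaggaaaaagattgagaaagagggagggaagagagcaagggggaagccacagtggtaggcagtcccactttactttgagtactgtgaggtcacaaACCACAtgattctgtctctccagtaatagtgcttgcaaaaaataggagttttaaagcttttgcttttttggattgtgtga
The MEF2 motif, searched as CTA, 4 bases of any kind and TAG, which reads alike on both strands, occurred in 3.69% of the windows and in 1 of the 12 windows of these genes. That window belonged to *Mef2a* (chr7:67372841-67372870, minus strand), where the motif in capitals spanned the listed start.
*Mef2a* at the start: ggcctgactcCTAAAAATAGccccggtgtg
*Hdac4*, the one gene of the group over 2-fold higher in dermal fibroblasts, had neither motif around its listed start. That start lies within the span of the gene, as do those of *Mef2a*, *Runx2* and *Mef2d* and the first of *Mef2c*. The windows of *Cbfb*, *Mef2c* and *Mef2d* also held neither motif. The SP motif, searched as GGGCGG or CCGCCC to cover both strands, occurred in 35.7% of the windows and in 5 of the 12. Before the *Cbfb* start it occurred 4 times. It also occurred 4 times within the 250 bases before the *Hdac4* start (chr1:92180342-92180591, minus strand), in capitals here.
*Hdac4* before the start: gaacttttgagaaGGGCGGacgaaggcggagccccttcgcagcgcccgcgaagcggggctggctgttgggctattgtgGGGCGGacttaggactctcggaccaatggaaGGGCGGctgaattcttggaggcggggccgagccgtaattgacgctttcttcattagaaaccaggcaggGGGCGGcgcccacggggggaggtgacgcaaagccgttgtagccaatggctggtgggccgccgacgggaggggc
A match is a description of these windows and does not show that a factor binds there.

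The chondrocyte library held 18788599 counts, and 17563724 were in that of the dermal fibroblasts. Counts were divided by library sizes adjusted with TMM factors, which reduce the weight of the few matrix genes that fill much of the chondrocyte library. A fold is the ratio of such scaled counts, and its 95% interval covers counting error in these 2 libraries only, since no replicate shows how cultures or animals vary. The labels were checked against marker genes. All 12 chondrocyte markers were over 2-fold higher in chondrocytes, beside 12.0% of all genes with at least 10 counts. *Col2a1* had 1447098 and 0 counts, *Col11a1* 211841 and 839, *Acan* 148105 and 35, and *Matn1* 2052 and 0. Of 10 fibroblast markers, 9 were over 2-fold higher in dermal fibroblasts, beside 16.2% of all genes with at least 10 counts. *Col1a1* had 39143 and 322379 counts, *Col3a1* 32090 and 273385 and *Col1a2* 34091 and 265777. The other marker, *Lum*, named after its values were seen, had 3191 and 2881 counts and was 1.14-fold higher in chondrocytes. In such bulk samples, fewer cells of a type and less RNA per cell cannot be told apart.

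Of the 9 regulators, *Sp7* alone was over 2-fold higher in chondrocytes, and *Hdac4* alone was over 2-fold higher in dermal fibroblasts. Among the 14730 genes with at least 10 counts, 12.0% were over 2-fold higher in chondrocytes and 16.2% in dermal fibroblasts. Of the 7 regulators within 2-fold, *Cbfb*, *Runx1*, *Runx2*, *Mef2a* and *Mef2c* were higher in chondrocytes and *Runx3* and *Mef2d* in dermal fibroblasts. Within 1.5-fold lay 5 of the 9, against 55.2% of the genes compared. Under the main scaling the counting interval excluded equality for all 9, above it for 6 and below it for 3. It did so for 34.5% of all genes above and 35.4% below. Intervals under the other scalings are not given here, and with total counts the *Mef2c* fold was 1.03. The median log2 fold of the 9 was 0.29, against 5.6e-05 over all genes compared.

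**Figure D1:**
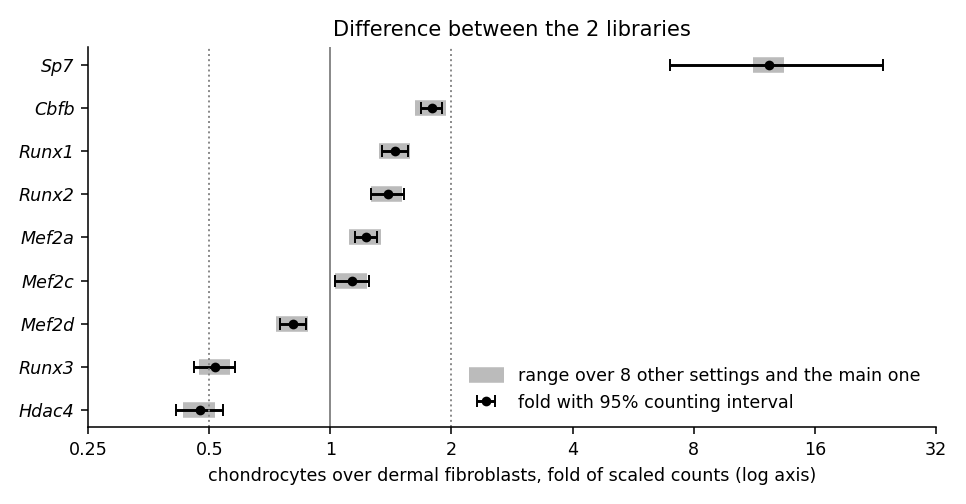
Fold of scaled counts in chondrocytes over dermal fibroblasts (x axis, log scale) for each regulator (y axis), with its 95% counting interval as a black bar and the range over the main setting and 8 other settings in grey; dotted lines mark 2-fold and the solid line equality. *Sp7* lies far to the right at 12.3, *Hdac4* and *Runx3* lie around the left dotted line at 0.474 and 0.517, and the others lie between 0.806 and 1.78.

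*Sp7* (chromosome 15 of GRCm38, 102356603 to 102367035) showed the widest difference of the group. It had 156 counts in chondrocytes (Poisson interval 132 to 182) and 13 in dermal fibroblasts (interval 6.92 to 22.2). Scaled to 1000000 counts per library (CPM), these were 8.70 and 0.706. The fold was 12.3 (interval 7.00 to 23.7), so the whole interval lay above 2-fold, as for 7.00% of all genes, and 98.5% of the genes compared had a lower fold. Of the genes compared, 25.5% had a lower mean CPM than *Sp7*. Over the other 8 settings the fold stayed between 11.2 and 13.4.

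In relation to *Runx2*, its upstream regulator, *Sp7* gave 14.8 reads per 100 *Runx2* reads in chondrocytes and 1.67 in dermal fibroblasts. This ratio, which needs no scaling between the libraries, was 8.88-fold higher in chondrocytes (interval 4.99 to 17.2). It is 1 of 10 ratios between partners computed for this group, chosen with the counts in view. With 2 libraries, a likeness of pattern is only a likeness of fold and level. By distance on the log2 scales of fold and mean CPM, the nearest of all genes to *Sp7* were *Hoxa4* (139 and 12 counts), *Xirp2* (142 and 13) and *Gna14* (169 and 16), at distances of 0.17, 0.18 and 0.23.

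The RUNX genes differed in direction. *Runx1* (chromosome 16, 92601466 to 92826074), which is needed for blood stem cells and is also expressed in early cartilage, had 1817 counts in chondrocytes (interval 1734 to 1903) and 1289 in dermal fibroblasts (1220 to 1361). It was 1.45-fold higher in chondrocytes (interval 1.35 to 1.56). *Runx2* (chromosome 17, 44495987 to 44814797), without which bone does not form, had 1051 counts (988 to 1117) and 778 (724 to 835), and it was 1.39-fold higher in chondrocytes (interval 1.26 to 1.52). *Runx3* (chromosome 4, 135120645 to 135177990) had 430 counts (390.3 to 473) and 855 (799 to 914). It was higher in dermal fibroblasts by 1.94-fold, with an interval from 1.72 to 2.18 that reached across 2-fold, and by 2.13-fold with total counts as the scaling. Each of these fold intervals excluded equality, as for 34.5% of all genes above it and 35.4% below. The *Runx1* and *Runx2* differences were of like size while that of *Runx3* ran against them.

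With its paralogs higher in different libraries, the makeup of the family differed more than its sum. The 3 genes together had 3298 counts in chondrocytes against 2922 in dermal fibroblasts, a 1.16-fold difference (interval 1.10 to 1.22). For levels of different genes, CPM were divided by the exon length in kilobases (CPM per kb). On this scale *Runx1* made up 53.2% of the family in chondrocytes (interval 51.5 to 54.9) and 39.0% in dermal fibroblasts (37.2 to 40.7). *Runx2* made up 27.2% (25.7 to 28.6) and 20.8% (19.4 to 22.1). *Runx3* made up 19.6% (18.0 to 21.3) in chondrocytes and 40.3% (38.4 to 42.2) in dermal fibroblasts, where the intervals of its share and that of *Runx1* overlapped. This overlap rests on the exon union as length. By the longest transcript *Runx3* made up 42.2% and *Runx1* 34.7% of the family in dermal fibroblasts, and as a share of reads they made up 29.3% and 44.1%. *Runx2* was thus the second of the family in chondrocytes and the last in dermal fibroblasts.

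**Figure D2:**
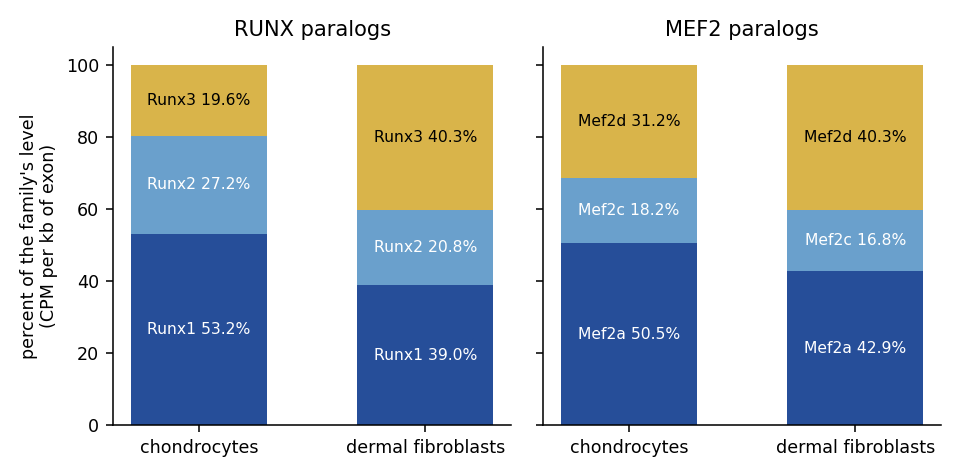
Share of each paralog in the summed level (CPM per kb of exon, percent on the y axis) of the RUNX family (left) and the MEF2 family (right), 1 bar per library. The *Runx3* segment grows from 19.6% in chondrocytes to 40.3% in dermal fibroblasts, and the *Mef2d* segment from 31.2% to 40.3%.

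Ratios of reads within a library gave the same picture. There were 40.9 *Runx3* reads per 100 *Runx2* reads in chondrocytes against 109.9 in dermal fibroblasts, a 2.69-fold difference in the ratio (interval 2.31 to 3.12). For *Runx1* there were 173 and 166 reads per 100 *Runx2* reads, and the interval of the difference (0.927 to 1.17) held 1.

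*Cbfb* (chromosome 8, 105170674 to 105217989), the common partner, had the highest level per exon length of the 9 in both libraries. It had 2960 counts in chondrocytes (interval 2854 to 3069) and 1704 in dermal fibroblasts (1624 to 1787), and it was 1.78-fold higher in chondrocytes (interval 1.68 to 1.89). The fold interval lay above equality, as for 34.5% of all genes. Among all genes compared, 85.6% had a lower fold. Per 100 reads of the 3 RUNX genes together there were 89.8 *Cbfb* reads in chondrocytes and 58.3 in dermal fibroblasts, so relative to the family the partner was 1.54-fold more abundant in chondrocytes (interval 1.42 to 1.66).

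The MEF2 genes also differed in direction. *Mef2a* (chromosome 7, 67231163 to 67376456) had 2093 counts in chondrocytes (interval 2004 to 2185) against 1755 in dermal fibroblasts (1674 to 1839), a 1.22-fold difference (interval 1.15 to 1.31). *Mef2c* (chromosome 13, 83504017 to 83667079), the member that drives hypertrophy together with RUNX2, had 881 counts (824 to 941) and 800.0 (746 to 857). Its fold of 1.13 (interval 1.03 to 1.25) was the nearest to equality of the 9 under the main scaling, whereas with *Actb* that of *Mef2d* was nearer, and the count intervals of the libraries overlapped. *Mef2d* (chromosome 3, 88141941 to 88172091) had 1223 counts (1155 to 1294) and 1558 (1482 to 1637) and was higher in dermal fibroblasts by 1.24-fold (interval 1.15 to 1.34). There were 238 *Mef2a* reads per 100 *Mef2c* reads in chondrocytes against 219 in dermal fibroblasts, and the interval of the difference (0.964 to 1.22) held 1. For *Mef2d* there were 139 and 195 reads per 100 *Mef2c* reads, a 1.40-fold difference toward dermal fibroblasts (interval 1.24 to 1.59).

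Summed, the 3 MEF2 genes had 4197 counts in chondrocytes against 4113 in dermal fibroblasts, and their ratio was 1.05 (interval 1.004 to 1.09). It became 0.954 with total counts, so the sum has no settled direction. The RUNX sum stayed higher in chondrocytes there, at 1.06-fold. Per kb of exon, *Mef2a* made up 50.5% of the family in chondrocytes (interval 49.0 to 52.1) and 42.9% in dermal fibroblasts (41.4 to 44.5). *Mef2d* made up 31.2% (29.8 to 32.7) and 40.3% (38.8 to 41.9). *Mef2c* had the smallest share in both libraries, 18.2% (17.1 to 19.3) and 16.8% (15.7 to 17.9), and these intervals overlapped. *Mef2a* was first, *Mef2d* second and *Mef2c* last of the family in both libraries.

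*Hdac4* (chromosome 1, 91928779 to 92195702), the repressor of the group, had 327 counts in chondrocytes (interval 293 to 364) and 709 in dermal fibroblasts (658 to 763). It was 2.11-fold higher in dermal fibroblasts, with an interval from 1.85 to 2.41 that reached below 2-fold. The whole interval lay beyond 2-fold in that direction for 10.5% of all genes. Of the genes compared, 15.3% had a fold further toward dermal fibroblasts. The call at 2-fold held with total counts, at 2.32-fold, and was lost with *Actb* as the scaling gene, at 1.94-fold. The nearest genes in fold and mean CPM were *Abcb10* (336 and 719 counts), *Dennd2a* (323 and 689) and *Tmed8* (338 and 711), at distances of 0.032, 0.041 and 0.047.

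*Hdac4* was also set against the factors it represses, by ratios that need no scaling between the libraries. There were 37.1 *Hdac4* reads per 100 *Mef2c* reads in chondrocytes against 88.6 in dermal fibroblasts, a 2.39-fold difference (interval 2.02 to 2.82). Per 100 *Runx2* reads there were 31.1 and 91.1, a 2.93-fold difference (interval 2.49 to 3.45). Per 100 reads of the 3 MEF2 genes together there were 7.79 and 17.2, a 2.21-fold difference (interval 1.92 to 2.55). The intervals of the *Mef2c* and *Runx2* ratios lay wholly beyond 2-fold, whereas that of the MEF2 sum did not. The levels of HDAC4 protein and its place in the cell were not measured.

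The order of the levels was set per kb of exon. In chondrocytes it ran from *Cbfb* (56.7 CPM per kb) through *Mef2a* (18.4), *Runx1* (13.0), *Mef2d* (11.4), *Mef2c* (6.65), *Runx2* (6.64) and *Runx3* (4.79) to *Sp7* (2.86) and *Hdac4* (2.81). The intervals of the neighbours *Mef2c* and *Runx2*, and of *Sp7* and *Hdac4*, overlapped. In dermal fibroblasts it ran from *Cbfb* (31.8 CPM per kb) through *Mef2a* (15.1), *Mef2d* (14.1), *Runx3* (9.28), *Runx1* (8.98), *Hdac4* (5.94), *Mef2c* (5.88) and *Runx2* (4.78) to *Sp7* (0.232). There the neighbours *Mef2a* and *Mef2d*, *Runx3* and *Runx1*, and *Hdac4* and *Mef2c* overlapped. *Hdac4* thus stood last of the 9 in chondrocytes, level with *Sp7*, and sixth in dermal fibroblasts, level with *Mef2c*. With the longest transcript as the length, *Mef2c* and *Runx2*, and *Sp7* and *Hdac4*, changed places in chondrocytes, and the order in dermal fibroblasts did not change. *Hdac4* depended most on this choice, with 4.63 CPM per kb in chondrocytes and 9.78 CPM per kb in dermal fibroblasts by its longest transcript, so its level with *Sp7* and *Mef2c* rests on the exon union as length.

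**Figure D3:**
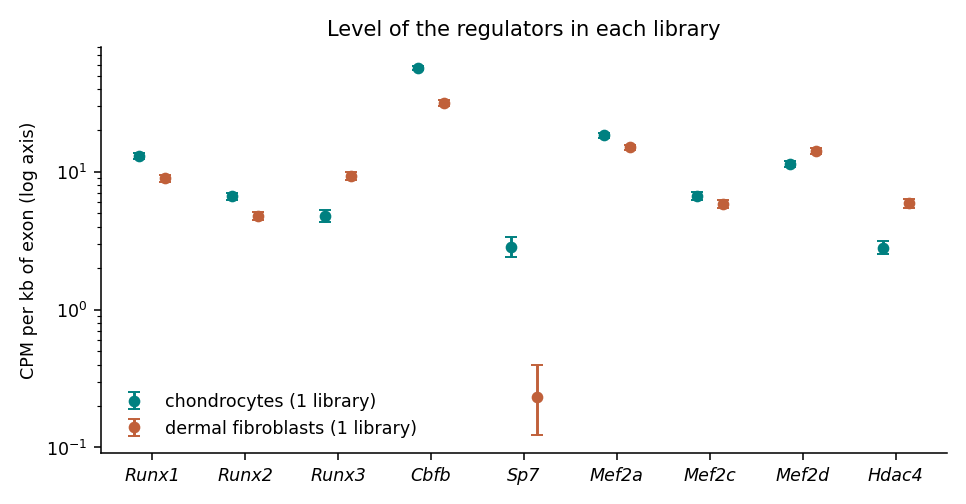
Level of each regulator (x axis) in CPM per kb of exon (y axis, log scale) in the chondrocyte library (green) and the dermal fibroblast library (orange), with exact 95% Poisson intervals. *Cbfb* is highest in both libraries at 56.7 and 31.8, and *Sp7* in dermal fibroblasts is lowest at 0.232.

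**Figure D4:**
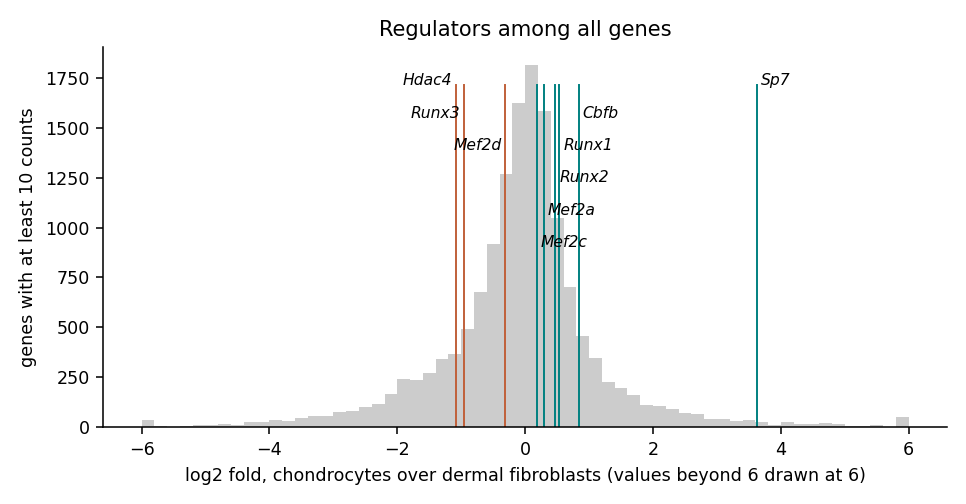
Histogram of the log2 fold (x axis) over the 14730 genes with at least 10 counts (y axis, number of genes), with a vertical line for each regulator, green above 0 and orange below, and folds beyond 6 drawn at 6. Apart from *Sp7* at 3.62, the regulators lie between -1.08 and 0.84, within the bulk of the genes.

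Most genes of the hypertrophic program, among them known RUNX2 and MEF2C targets, had wider folds than most of the regulators. Of 16 hypertrophic chondrocyte genes, 12 were over 2-fold higher in chondrocytes and 1 in dermal fibroblasts, beside 12.0% and 16.2% of all genes compared. Their median log2 fold was 2.55. That of the 12 chondrocyte markers, all over 2-fold higher in chondrocytes, was 9.91, so wide folds were not particular to this list. *Col10a1*, the type X collagen that defines hypertrophy, had 10378 counts in chondrocytes against 3 in dermal fibroblasts, a ratio of 3553 with an interval from 1215 to 17232. *Mgp*, an inhibitor of calcification, had 18280 counts and 18, and was 1043-fold higher (interval 660 to 1760). *Fgfr3*, a receptor that restrains chondrocyte growth, had 13972 and 54 counts, and *Spp1* (osteopontin) had 9639 and 3413. *Ihh*, a ligand made by prehypertrophic cells and named after its values were seen, had 41 and 3 counts. *Mmp13*, a collagenase of terminal hypertrophic chondrocytes also named after its values were seen, had 2276 and 296 counts and was 7.90-fold higher (interval 6.99 to 8.94). The gene over 2-fold higher in dermal fibroblasts was *Mmp9*, with 101 and 468 counts, a gelatinase of osteoclasts and other invading cells. *Vegfa*, named after its values were seen, leaned the same way, with 1869 and 2609 counts. Its scaled counts differed by 1.36-fold, and the interval from 1.28 to 1.44 excluded equality. Across the 16 genes, 14 intervals lay above equality and 2 below, beside 34.5% and 35.4% of all genes compared.

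Of 16 osteoblast genes, 11 had at least 10 counts. Of these, 6 were over 2-fold higher in chondrocytes and 2 in dermal fibroblasts, beside 12.0% and 16.2% of all genes compared. Their median log2 fold was 1.54. The list shares *Ibsp*, *Spp1* and *Alpl* with the hypertrophic list. *Ibsp* (bone sialoprotein), a protein of mineralizing matrix, had 349 counts and 1, a ratio of 358 without the floor, with an interval from 63.9 to 14198. With the count of 1 raised to the floor of 3 counts, the fold was 119. *Col1a1* was 8.02-fold higher in dermal fibroblasts, *Sparc* had 120019 and 115617 counts, and *Atf4* had 11671 and 8665. The osteocalcin genes, which mark mature osteoblasts and were named after their values were seen, had few reads. *Bglap* had 6 and 0 counts, *Bglap2* had 5 and 1, and *Bglap3* had 2 and 5, and reads of these near-identical genes may be divided among them. Several other members of the list, also named after their values were seen, were higher in chondrocytes. *Dlx5*, a factor of bone-forming cells, had 93 and 3 counts, the matrix protein gene *Dmp1* had 48 and 1, *Phex* had 23 and 1, and the alkaline phosphatase gene *Alpl* had 734 and 173. Whether the *Sp7* reads came from chondrocytes or from bone-forming cells at the rib was not tested.

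**Figure D5:**
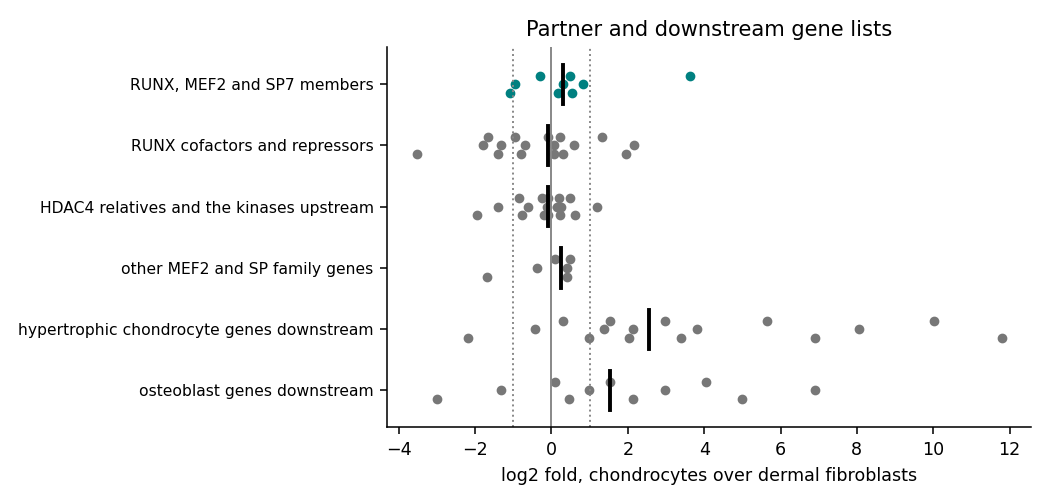
Log2 fold (x axis) of each gene with at least 10 counts in the group of 9 (green) and in 5 lists of partner and downstream genes (grey, y axis), with the median as a black bar and 2-fold as dotted lines. The medians of the hypertrophic and osteoblast lists lie at 2.55 and 1.54, and those of the group and the partner lists between -0.10 and 0.29.

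A list of 17 genes held relatives of HDAC4 and kinases and other signaling genes upstream of it. Of these, 1 was over 2-fold higher in chondrocytes and 2 in dermal fibroblasts, beside 12.0% and 16.2% of all genes compared. The 1 in chondrocytes was *Camk2b* (58 and 26 counts), named after its values were seen. The median log2 fold of the list was -0.10 and turned to 0.02 with *Actb*. The class IIa deacetylases, which share the MEF2-binding region of HDAC4, were all lower in chondrocytes under each scaling tried. Under the main scaling each interval lay below equality, as for 35.4% of all genes. *Hdac7* gave 700.0 counts in chondrocytes against 1902 in dermal fibroblasts and was 2.65-fold higher in the latter (interval 2.42 to 2.89). *Hdac9* had 33 and 132 counts, a 3.89-fold difference (interval 2.64 to 5.89). *Hdac5*, named after its values were seen, had 1091 and 1929 counts, a 1.72-fold difference (interval 1.60 to 1.86). With *Hdac4*, the 4 genes had 2151 counts in chondrocytes against 4672 in dermal fibroblasts, a grouping made after their values were seen. *Sik3*, the kinase known to hold HDAC4 in the cytoplasm of growth plate chondrocytes, had 1605 and 1437 counts, a fold of 1.15 (interval 1.07 to 1.23). The *Sik*, *Camk2* and *Prkd* genes were grouped after their values were seen. Of 3 *Sik* genes, 2 were higher in chondrocytes and 1 in dermal fibroblasts under each scaling, the latter *Sik2* (275 and 429 counts). All 4 *Camk2* genes were higher in chondrocytes under each scaling, with intervals above equality as for 34.5% of all genes. Of 3 *Prkd* genes, 2 were higher in dermal fibroblasts under each scaling and none in chondrocytes. The protein kinase A subunits *Prkar1a* (5478 and 6040 counts) and *Prkaca* (1585 and 1871) lay within 1.5-fold. *Pthlh*, which encodes parathyroid hormone-related protein, and its receptor gene *Pth1r* were named after their values were seen. *Pthlh* had 9 and 6 counts, and *Pth1r* had 1439 and 1581.

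Markers of other cell types that use these factors had reads in both libraries, except for some lymphoid markers. For the calls below, 12.0% of all genes compared were over 2-fold higher in chondrocytes and 16.2% in dermal fibroblasts. MEF2 factors act with myogenic factors in muscle, and the 16 skeletal muscle markers summed to 2291 CPM in chondrocytes and 1577 CPM in dermal fibroblasts, with 8 over 2-fold higher in chondrocytes and 1 in dermal fibroblasts. Their most abundant genes were *Actc1* (7288 and 7970 counts), *Myh3* (7784 and 6497) and *Acta1* (6259 and 4705). The myogenic factor genes of the list, named after their values were seen, mostly differed more. *Myod1* had 2328 and 496 counts, *Myog* 3526 and 1728, *Myf5* 36 and 1, *Myf6* 8 and 3 and *Pax7* 120 and 4. *Pax3* went the other way, with 4 and 12 counts. *Runx1*, *Runx3* and *Mef2c* are expressed in blood cells, and the 13 macrophage and mast cell markers summed to 125 and 205 CPM, with 6 over 2-fold higher in dermal fibroblasts and none in chondrocytes. They were led by *Lyz2* (1046 and 1639 counts), *Cd68* (423 and 600.0) and *Csf1r* (160.0 and 430.0). The T cell markers *Cd3e*, *Cd3d* and *Cd8a* and the killer cell marker *Nkg7* had 0 counts in both libraries. The lymphoid markers *Il7r* (18 and 43 counts) and *Cd4* (5 and 21) were over 2-fold higher in dermal fibroblasts, and *Cd79a* had 4 and 3 counts. None of the muscle or macrophage markers was at 0.

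Markers of cell types found in skin had most of their reads in the dermal fibroblast library. Of all genes compared, 16.2% were over 2-fold higher there. The 8 endothelial markers summed to 16.1 CPM in chondrocytes and 55.1 CPM in dermal fibroblasts, and 7 were over 2-fold higher in the latter, with *Kdr* at 70.0 and 276 counts, *Cdh5* at 68 and 198 and *Pecam1* at 70.0 and 120.0. The 8 keratinocyte markers summed to 9.09 and 257 CPM, and 5 of the 7 with at least 10 counts were over 2-fold higher in dermal fibroblasts, with *Krt14* at 17 and 1939 counts, *Krt5* at 1 and 1693 and *Dsp* at 27 and 722. The 7 melanocyte markers summed to 11.2 and 78.7 CPM, and 6 were over 2-fold higher in dermal fibroblasts, with *Mitf* at 150.0 and 599 counts and *Sox10* at 25 and 310.0, while *Dct* (0 and 238) and *Tyrp1* (0 and 149) had no count in chondrocytes. These lists and the macrophage and lymphoid lists were higher in dermal fibroblasts, as *Runx3*, *Mef2d* and *Hdac4* were, while *Runx1* and *Mef2c* were higher in chondrocytes. The muscle list was higher in chondrocytes, as *Mef2a* and *Mef2c* were, while *Mef2d* was higher in dermal fibroblasts. Their part in those differences was not tested.

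Some rows could share reads with an overlapping gene. On GRCm38 the span of *Runx2* shares 37680 bp with *Supt3* (315 and 256 counts) on the opposite strand, and that of *Mef2d* shares 532 bp with the noncoding gene *1700113A16Rik* (99 and 84 counts), also on the opposite strand. If the counting ignored the strand, reads in shared exons could not be assigned, and the setting is not given in the sources used here.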

How the data were processed

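Per the labels and the study's methods, mRNA was prepared with a TruSeq stranded kit and read from one end (75 bp), bases were called with CASAVA 1.8.2, and reads were mapped to mm10 with TopHat2 2.0.13, Bowtie2 2.2.3 and SAMtools 0.1.19. The authors deposited raw read counts per gene symbol. The counting program, its annotation and its strand setting are not given in the sources used here.

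The counts were scaled with TMM factors (edgeR 4.0.16 in R 4.3.3), 0.954 for chondrocytes and 1.05 for dermal fibroblasts, in place of the authors' own normalization, since the values here rest on the deposited counts alone. CPM are counts scaled to 1000000 per library. A floor of 3 counts replaced lower values in folds, and genes with at least 10 counts in both libraries together were compared. Count intervals are exact Poisson intervals and fold and share intervals are Clopper-Pearson, all at 95% (scipy 1.17.1). They cover counting error only. With 1 library per cell type no test was made.

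Exon lengths were the union of exons in GENCODE vM1 (NCBIM37), used as lengths only. Positions and promoters are those of RefSeq on GRCm38.p6. The genes named were the 9 members; of each partner list the 3 most abundant genes and the 2 most changed among those reaching 100 counts in the higher library; of each marker list the 3 most abundant and those at 0; and the 3 nearest genes of 2 members. Others are stated as chosen later. The members and all lists were chosen with earlier results of these data known. Alternatives were total counts, DESeq2 1.42.0 size factors, upper quartile, totals without the 10 most abundant genes, *Actb*, floors of 1 and 10 counts and a pseudocount of 1. The calculation was tested on simulated counts. In the table, 27 rows carry date-like symbols and name no gene used here. Some listed genes are not reported here.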

Additional observations from a re-analysis of the deposited data

How the results depend on the processing

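No paired analysis was possible because there was a single library of either kind, so none could be left out. The directions of all 9 regulators held under each of the 8 other settings, and 63 of the 72 recomputed folds stayed within the counting interval of the main value. The other 9 belonged to *Runx1*, *Runx2*, *Cbfb*, *Mef2a* and *Mef2d* with total counts or *Actb*, which moved the log2 folds of all genes by -0.14 and 0.12. The 63 include the folds under the other floors, which equal the main value by construction. Every regulator count lay above those floors, so these settings could not test the regulators. The pseudocount barely moved any regulator but *Sp7*. The number of regulators past 2-fold toward dermal fibroblasts was 1 and became 2 with total counts, where *Runx3* reached 2.13-fold. It became 0 with *Actb*, 0 at a fold over 4 and 0 where the whole interval had to lie beyond 2-fold. The number over 2-fold higher in chondrocytes, *Sp7*, stayed at 1 throughout. Over all genes, 1761 were over 2-fold higher in chondrocytes and 2388 in dermal fibroblasts. These became 713 and 929 at a fold over 4, 1031 and 1546 with the whole interval over 2-fold, and 1035 and 1568 among genes with at least 100 counts, by construction fewer genes. The median of the RUNX cofactor list ran from -0.22 with total counts to 0.04 with *Actb*, so its sign depends on the scaling, and that of the HDAC4 list reached 0.02 with *Actb*. The osteoblast median fell from 1.54 to 0.88 without the filter on low counts. With the longest transcript as the length, a choice added after seeing the data, *Runx3* made up 20.9% of the RUNX level in chondrocytes and 42.2% in dermal fibroblasts, and as a share of reads without length it made up 13.0% and 29.3%. Depth limits *Sp7* most, whose 13 reads in dermal fibroblasts set the width of its interval.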

Other observations

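Of 17 cofactors and repressors of RUNX proteins, 3 were over 2-fold higher in chondrocytes and 5 in dermal fibroblasts, beside 12.0% and 16.2% of all genes compared, with a median log2 fold of -0.09 that turned to 0.04 with *Actb*. *Twist2*, a repressor of RUNX2 and a dermal factor, had 114 counts in chondrocytes against 1357 in dermal fibroblasts and was 11.6-fold higher in the latter (interval 9.57 to 14.2). *Twist1*, which also binds RUNX2 and was named after its values were seen, had 373 and 1336 counts, a 3.49-fold difference (interval 3.11 to 3.92). The Groucho family includes corepressors that bind the end of RUNX proteins. Of its 5 genes, 2 were higher in chondrocytes and 3 in dermal fibroblasts under each scaling tried. *Tle1* had 908 and 242 counts and was 3.85-fold higher in chondrocytes (interval 3.34 to 4.46), and *Tle4*, named after its values were seen, had 371 and 152. *Aes*, the short member of that family, had 1641 and 5293 counts and was 3.14-fold higher in dermal fibroblasts. *Tle2* (408 and 812 counts) and *Tle3* (998 and 1794), also named after their values were seen, were 1.94-fold and 1.75-fold higher there. The coactivators *Wwtr1* (3581 and 2996 counts) and *Yap1* (2210 and 2408) lay within 1.5-fold.

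Of the other genes of the MEF2 and SP families, *Mef2b*, *Sp5* and *Sp8*, named after their values were seen, had no count in either library. Of the 6 with at least 10 counts, none was over 2-fold higher in chondrocytes and 1 was in dermal fibroblasts. Of all genes compared, these shares were 12.0% and 16.2%. The 1 gene was *Sp9*, also named later, with 2 and 10 counts of which the 2 were raised to the floor of 3. The median log2 fold was 0.25. *Sp1* had 2075 and 1983 counts, *Sp3* had 1276 and 1693, *Sp2* had 582 and 428, and *Sp4* had 159 and 124. Among the SP genes with at least 10 counts, *Sp7* alone was over 2-fold higher in chondrocytes, as 12.0% of all genes compared were.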
